A study of Mus musculus with 12 samples.

Results

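The cytosolic ribosomal protein genes code for the proteins of the ribosome that translates nuclear messenger RNA. They were taken as the protein-coding genes whose symbol is Rpl or Rps with a number, or Rplp0, Rplp1, Rplp2 or Rpsa, without pseudogenes, ribosomal S6 kinases and mitochondrial ribosomal proteins. Of 54532 genes in the table, 86 met this rule on names, and 83 of them reached 1 FPKM (fragments per kilobase per 1000000 fragments, a level corrected for length and depth) in at least 3 of 12 libraries, among 12871 genes that did so. The 83 hold 77 standard subunits (46 of the large and 31 of the small subunit), 5 paralogs (Rpl7l1, Rpl22l1, Rpl39l, Rps27l and Rps27rt) and Rps19bp1, which encodes a protein that binds Rps19 and is no subunit. Of the 3 left out, Rpl36al lay between 0.353 and 1.02 FPKM, Rpl3l reached 0.130 FPKM and Rpl10l was listed at 0 in all 12 libraries.

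The cells were bone marrow mesenchymal stem cells (MSCs) at passage 3 from mice of C57BL6/J background aged 4 weeks. Libraries labelled WT came from Chd7fl/fl mice and are called control. Libraries labelled Chd7 KO came from Prx1-cre;Chd7fl/fl mice and are called knockout. Both genotypes carry the floxed allele, and Prx1-cre, which is active in early limb mesenchyme, removes exon 2 of Chd7, a chromatin remodeler. RNA was taken 5 days after osteogenic induction with β-glycerophosphate (10 mM), dexamethasone (10 nM) and ascorbic acid (50 µM), or adipogenic induction with isobutylmethylxanthine (0.5 µM), dexamethasone (1 µM) and insulin (10 µg/ml), with 3 libraries in each of 4 groups. The sources used here do not say whether replicates came from separate mice, so p-values measure the spread between these libraries, which may be technical. Where values of both genotypes stand side by side, those of the control libraries come first.

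Every ribosome holds one copy of almost every ribosomal protein, and the genes for them are among the most strongly expressed of growing cells. Many of their mRNAs begin with a C and a run of pyrimidines, the 5' terminal oligopyrimidine (TOP) tract, through which the mTORC1 kinase pathway controls their translation. Transcription of these genes is linked with Myc and with ETS-family factors. When ribosome assembly is disturbed, free Rpl5 and Rpl11 bind the ubiquitin ligase Mdm2 and stabilise p53. CHD7 acts in the nucleus, also at ribosomal DNA in the nucleolus. Retrotransposition has left the mouse genome with many copies of these genes, most of them pseudogenes, and this bears on how reads can be assigned.

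The sequences shown first are those that decide how far the values can be read. Rps27, on chr3:90212522-90213651 (minus strand, GRCm38), encodes a zinc-finger protein of the small subunit. Rps27rt is a retrotransposed copy at chr9:114982366-114982739 (minus strand, GRCm38). In GENCODE M21 their coding sequences of 255 bases were identical at every position, so a read inside the coding part carries no information on which of the pair it came from.
Rps27 and Rps27rt: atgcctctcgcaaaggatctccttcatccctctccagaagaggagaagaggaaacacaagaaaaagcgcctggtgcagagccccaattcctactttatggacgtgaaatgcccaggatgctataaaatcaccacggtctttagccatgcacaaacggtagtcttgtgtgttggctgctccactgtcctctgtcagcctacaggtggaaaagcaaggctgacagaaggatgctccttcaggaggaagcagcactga

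Start regions of RefSeq (GRCm38.p6) were found for 63 of the 83 genes. A TOP start was taken as a C followed by at least 4 more bases that were C or T, beginning within 5 bases of the annotated start on the plus strand of the gene. It was found in 30 of 63 members (47.6%) and in 21.2% of 27025 genes. Windows of 30 bases, from 10 before to 20 after the start, are given for 4 members with a run and 2 abundant members without one, with the run in capitals.
Rps6 (chr4:86857348-86857377, minus): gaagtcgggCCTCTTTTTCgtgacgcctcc
Rps18 (chr17:33955646-33955675, minus): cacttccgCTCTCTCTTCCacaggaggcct
Rps27 (chr3:90213629-90213658, minus): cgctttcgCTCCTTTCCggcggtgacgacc
Rpl13a (chr7:45128726-45128755, minus): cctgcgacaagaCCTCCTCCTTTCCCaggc
Rplp0 (chr5:115559457-115559486, plus): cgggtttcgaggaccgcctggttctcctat
Rpl4 (chr9:64173377-64173406, plus): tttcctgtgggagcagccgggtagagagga
The run of Rps6, the small-subunit protein phosphorylated by S6 kinases, spans 10 bases, and that of Rpl13a spans 14 and begins at base 3 of the transcript. Windows such as those of Rplp0 and Rpl4 hold no such run near the start that RefSeq gives, which says nothing of other start sites. Over 300 bases of start region, from 250 before the start to 50 after it and on both strands, the ETS motif CCGGAAG was found in 26 of 63 members (41.3%) and in 9.93% of all genes. The GC box GGGCGG was found in 39 members (61.9%, all genes 38.2%), the YY1 core GATGGC in 15 (23.8%, all genes 15.9%) and the Myc E-box CACGTG in 6 (9.52%, all genes 8.09%). TATAAA, searched on the plus strand only, was found in 6 members (9.52%, all genes 9.77%). None of these motifs contains another.

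Between 17496343 and 21099588 fragments fell on genes in each library, so that 3 fragments on 1 kilobase correspond to 0.143 to 0.185 FPKM. Chd7 was measured at 2.64, 2.67 and 2.77 FPKM in control and 2.03, 2.35 and 2.28 FPKM in knockout osteogenic libraries (log2 difference -0.20 ± 0.079, SE, adjusted p = 0.160), and at 2.26, 1.81 and 2.23 against 2.03, 2.35 and 2.48 FPKM in adipogenic medium (0.086 ± 0.079, adjusted p = 0.428). A deletion of 1 exon need not lower the level of the whole gene, so these values do not check the labels. Besides stromal genes the libraries held many transcripts of macrophages, cells of the blood lineage and not of limb mesenchyme. The 14 macrophage markers summed to 14343 to 16311 FPKM in osteogenic medium, to 19209.7, 9711 and 19163 FPKM in control and to 9403, 7926 and 8121 FPKM in knockout libraries in adipogenic medium. A large part of each sum came from 1 of the 14, which alone held 8957 to 11249 FPKM in osteogenic medium. In adipogenic medium it held 13878.5, 5456 and 14411.5 FPKM in control and 5010, 3845 and 3986 FPKM in knockout libraries. The sums therefore follow that marker more than the others. Control adipogenic library 2 thus stood apart from the other two libraries of its group, and its 16 proliferation genes summed to 457 FPKM against 248 and 243 FPKM. The summed markers of mature adipocytes reached 1.31 FPKM at most, and those of red cells 0.0697 FPKM. In such cultures fewer cells of a type and less RNA per cell cannot be told apart.

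Ribosomal protein genes stood far above the other genes in level. Their mean FPKM over 12 libraries had a median of 155.6, against 6.47 over all 12871 tested genes, and 73 of 83 lay above the 90th percentile of all tested genes. The highest was Rplp1, a protein of the ribosomal stalk, with 1952 FPKM. It was followed by Rplp0, the base of that stalk, with 815 FPKM, by Rpl41 with 599.7 FPKM, by Rps3a1 with 518 FPKM and by Rps2 with 514 FPKM. The ranges over the 12 libraries of Rps3a1 (482 to 589), Rps2 (437 to 634) and Rpl41 (491 to 719.7 FPKM) overlapped, and that of Rplp0 (693 to 989 FPKM) overlapped with that of Rpl41. Rplp1 (1723 to 2222 FPKM) stood above all others. In all, 59 members exceeded 100 FPKM.

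Although ribosomal proteins are needed in equal amounts, the mean FPKM of the 83 genes ranged over 1649-fold, and several genes at the low end share sequence with an overlapping gene or a copy. Rpl24 had 1.18 FPKM and Rps10 1.28 FPKM, followed by Rpl22l1 with 11.7, Rpl13a with 12 and Rpl21 with 16 FPKM. To measure shared sequence, each member's main transcript was split into windows of 50 bases at every position. Of the windows of Rpl24, 69.4% were also found in the annotated transcript Gm28037, which was listed at 0 in all libraries. Of those of Rps10, 50.8% were found in RPS10-NUDT3, also listed at 0, and 40.9% in Rps10-ps2, which had 188 FPKM on average. For Rpl13a, 57.4% were found in Gm45713, again listed at 0. How the authors counted fragments that fit several genes is not given in the sources used here, so the levels of such members are uncertain.

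Among all 83 members a median of 43.9% of windows occurred in another annotated gene, 34 members shared at least 50%, and 3 shared none. FPKM also depend on the annotated length. The level fell with the exonic length of the gene (Spearman's rho −0.50 across 83 genes, which are not independent replicates), and 42 members had an exonic length more than 2 times that of their main transcript. Divided by the length of the main transcript in place of the exonic length, Rps18 moved from rank 35 to rank 6 and Rps19 from rank 65 to rank 18, while Rplp1 stayed at rank 1 and Rpl24 at rank 83. Levels between members are therefore a description of these files, and differences between groups can also be affected where members share sequence with a copy.

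**Figure D1:**
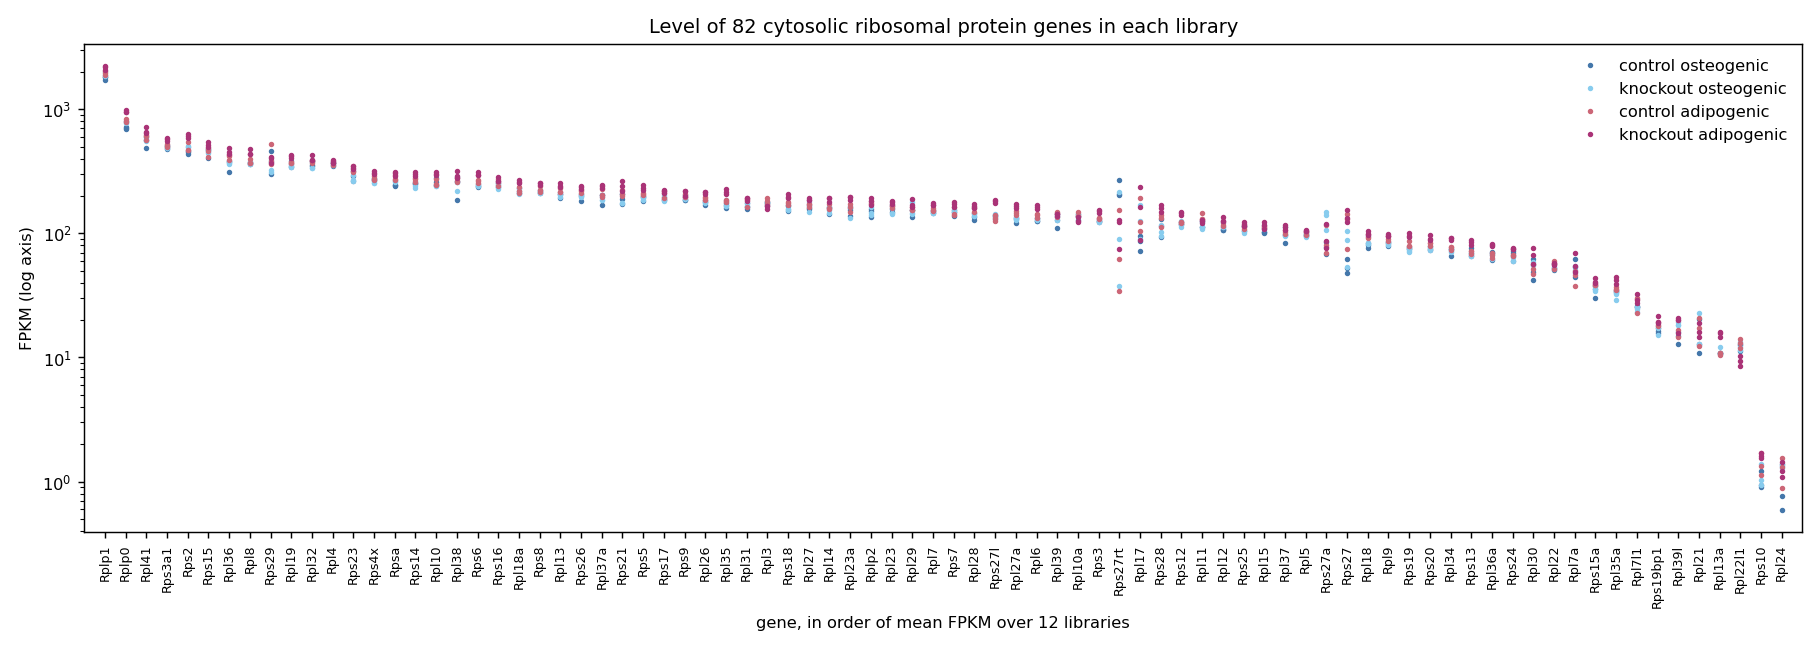
FPKM of 82 of the 83 genes (y axis, log scale) in each of 12 libraries (points, coloured by group), in order of the mean FPKM from Rplp1 (1952 FPKM) to Rpl24 (1.18 FPKM). For most genes the 12 points lie close together, with exceptions such as Rps27, Rps27rt and Rpl17.

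Within a group the members varied little. Their pooled SD on the log2(FPKM + 1) scale had a median of 0.071, against 0.11 over all tested genes, and 71 of 83 had a median coefficient of variation within groups under 10%. The order of levels was nearly the same in all libraries, with Spearman's rho between 0.945 and 0.995 over the 66 pairs of libraries. The 6 with a coefficient of 20% or more were Rps27rt, Rps27, Rpl17, Rps27a, Rpl21 and Rpl24, and they include the pair of identical coding sequences shown above. Rps27rt was measured at 202, 271 and 209 FPKM in control and 37.5, 90.8 and 215 FPKM in knockout osteogenic libraries, and at 62.2, 34.4 and 154 against 128, 123 and 74.3 FPKM in adipogenic medium. Rps27 was measured at 47.5, 52.8 and 62.2 against 103, 89 and 54 FPKM in osteogenic and at 129, 144 and 75.3 against 133, 124 and 153 FPKM in adipogenic medium. Where one was high the other tended to be low. Turned back into fragments per 1000000, Rps27rt alone varied 7.89-fold and Rps27 alone 3.23-fold between libraries, but their sum only 1.54-fold, from 122 to 188.

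Rpl17, which lines the exit tunnel of the large subunit, showed the same with its copies. Alone it varied 3.29-fold between libraries, and together with Rpl17-ps3 and Rpl17-ps10 1.51-fold. No direction between groups was read from Rps27, Rps27rt or Rpl17 alone. For the sum of Rps27 and Rps27rt the means were 142 ± 15.7 fragments per 1000000 in control and 128 ± 7.43 in knockout osteogenic libraries, and 152 ± 14.1 and 183 ± 6.85 in adipogenic medium (SD, n = 3 each). The 3 knockout adipogenic libraries had the 3 highest sums, from 175 to 188.

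**Figure D2:**
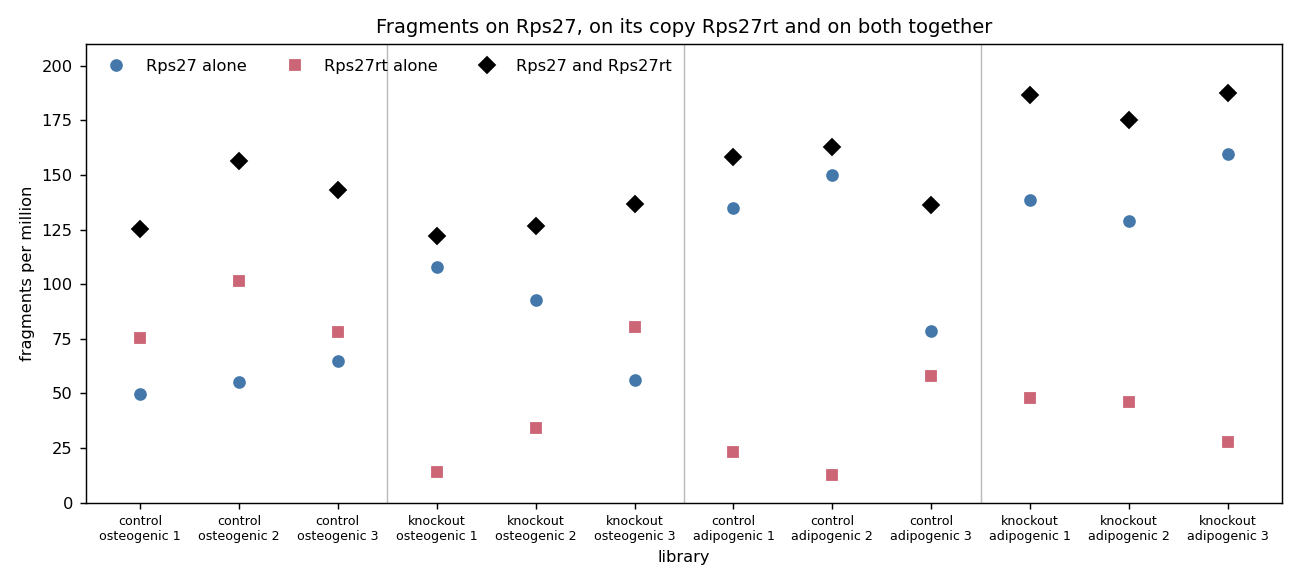
Fragments per 1000000 (y axis) on Rps27 (circles), on its copy Rps27rt (squares) and on both (diamonds) in each of the 12 libraries (x axis). The single genes move against each other, while the sum stays between 122 and 188.

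In osteogenic medium 1 ribosomal protein gene passed the test between knockout and control cells. With limma on log2(FPKM + 1) and Benjamini-Hochberg adjustment over all tested genes at 0.05, 1 of 83 was called higher and 0 lower, against 4.94% and 4.15% of all tested genes. At an unadjusted p under 0.05 there were 7, where the share of all tested genes is at least the 9.09% called after adjustment. With limma voom on recovered fragments 2 were called (all tested genes 9.39%). Fitted on the 6 osteogenic libraries alone 6 were higher and 1 lower (all tested genes 13% and 13.5%). The groups did not overlap in 8 members that were higher and 3 that were lower (all tested genes 21% and 23.2%). The median log2 difference over the 83 was 0.0071, against −0.0064 over all tested genes, and 46 lay above 0. The single call was Rplp0, which was measured at 693, 702 and 714 FPKM in control and 808, 772 and 787 FPKM in knockout libraries, a log2 difference of 0.17 ± 0.042 (SE, adjusted p = 0.0370). All 3 knockout libraries were above all controls, but the call was lost whenever any of the 6 libraries was left out. Rplp0, under the name 36B4, served the study as the qRT-PCR reference of its adipogenic experiments. Rps27a was measured at 84.7, 68.4 and 77.8 FPKM in control and 148, 141 and 106 FPKM in knockout libraries, again without overlap, a difference of 0.76 ± 0.22 that did not pass (adjusted p = 0.0562). Rplp1 and Rplp2, which form the rest of the stalk, differed by 0.10 ± 0.053 (adjusted p = 0.304) and 0.016 ± 0.073 (adjusted p = 0.934).

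In adipogenic medium 30 of the 83 genes were higher in knockout than in control cells and 2 were lower, by the same test, against 16.7% and 16.5% of all tested genes. The groups did not overlap in 51 members that were higher and 4 that were lower (all tested genes 20.2% and 18.4%). The differences were small, with a median of 0.15 on the log2(FPKM + 1) scale (1.11-fold) against −0.015 over all tested genes, and 77 of 83 lay above 0. Scaling to an equal FPKM sum in each library (TPM) moved the median of all tested genes to 0.14 and that of the members to 0.34, so that the members lay 0.20 above all genes there and 0.17 above them on the deposited scale. By that scaling 55 were called higher and 0 lower (all tested genes 25.3% and 6.99%). Fitted on the 6 adipogenic libraries alone, 8 were called higher and 1 lower, near the share of all tested genes (7.87% and 5.11%).

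The summed FPKM of the 83 genes was 17127, 17552 and 16487 in control and 19016, 18379 and 19645 in knockout libraries in adipogenic medium, where all 3 knockouts lay above all controls. It was 15116, 16270.1 and 16487 in control and 16683, 15743 and 16098 in knockout osteogenic libraries, where the groups overlapped. As a share of all FPKM these were 4.90, 5.92 and 4.34% and 6.39, 6.22 and 6.48% in adipogenic medium and 4.96, 5.29 and 5.17% and 5.36, 4.98 and 5.20% in osteogenic medium. The shares of controls in adipogenic medium spread most, and there a single gene held 10.7% of all FPKM in library 3 (Gm23935, a small noncoding RNA gene) and 6.40% in library 1 (Fth1, ferritin heavy chain). The macrophage markers moved with genotype too. In knockout against control cells in adipogenic medium 3 of 14 were higher and 7 lower, and of the defining ones Adgre1 (F4/80) fell by 2.05 and Csf1r by 0.80, whereas C1qa rose by 0.67. Of the tested stromal markers 4 of 9 rose and 2 fell, of the endothelial 2 of 4 rose and of the mature osteoblast markers 2 of 3 rose. Over all tested genes 16.7% rose and 16.5% fell. The endothelial and mature osteoblast markers were low, with sums of at most 7.56 and 12 FPKM in knockout adipogenic libraries. The part of these markers in the differences of the ribosomal protein genes was not tested. Without control adipogenic library 2, whose macrophage marker sum was just above those of the knockouts, 38 members were called higher and 2 lower, where calls rose over all tested genes too (24.3% higher and 26.8% lower). Without knockout adipogenic library 3, 15 were higher and 1 lower (all tested genes 11.5% and 10.2%), and without control adipogenic library 3, 18 were higher and 2 lower (12.7% and 11.3%).

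**Figure D3:**
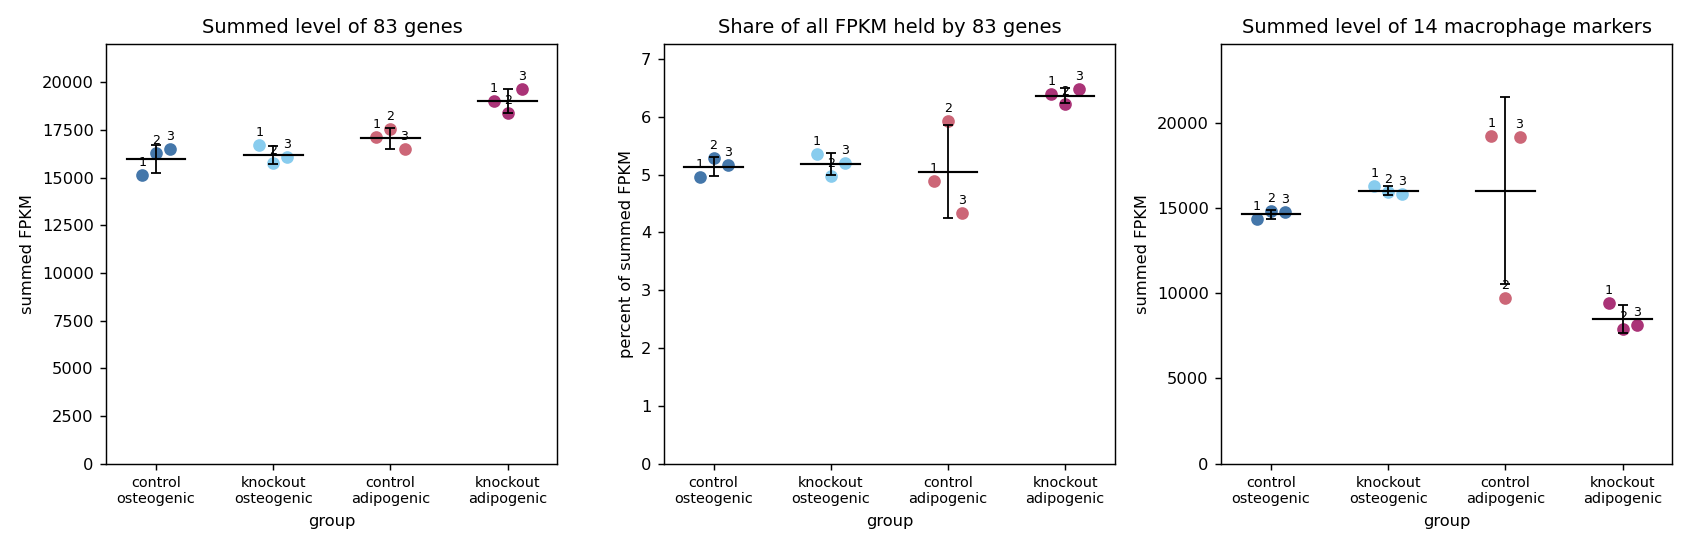
Summed FPKM of the 83 genes (left), their percent of all FPKM (middle) and summed FPKM of 14 macrophage markers (right) in each library (points with replicate number), with the mean (line) and SD of 3. The knockout adipogenic libraries are highest in the first and second panels, and in the third they are lowest, with control adipogenic library 2 just above them at 9711 FPKM.

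Among the members called, the one that rose most was Rpl13a, a large-subunit protein that also takes part in translational silencing of inflammatory mRNAs. It was measured at 10.8, 10.5 and 10.8 FPKM in control and 16, 14.7 and 15.7 FPKM in knockout libraries, a log2 difference of 0.49 ± 0.051 (adjusted p = 9.16e-05), with 10.6, 10.8 and 10.9 against 11, 10.8 and 12.2 FPKM in osteogenic medium. The 3 knockout adipogenic libraries thus stood above the other 9. As given above, more than 50% of its windows lie in an overlapping gene. Rps27l, a paralog of Rps27 whose gene is a known target of p53, was measured at 133, 139.9 and 127 against 181, 176 and 184 FPKM (0.43 ± 0.049, adjusted p = 0.000169), against 129, 138 and 142 against 142, 136 and 139 FPKM in osteogenic medium. It too was higher in these 3 libraries than in all others, and shares only 22.4% of its windows. Both calls held in all alternatives tried.

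Of the small subunit with its paralogs, 15 of 33 genes rose and 0 fell in adipogenic medium, with a median difference of 0.17. The counts given here stand beside 30 higher and 2 lower of all 83 members and 16.7% and 16.5% of all tested genes. Rps2, at the entry of the mRNA channel, was measured at 470.2, 547 and 469 FPKM in control and 609, 589 and 634 FPKM in knockout libraries (0.30 ± 0.062, adjusted p = 0.00488). Control library 2 was the highest of its group but still below every knockout. Rps3, which also lies at the channel entry and has a nearly unique sequence (2.96% of windows shared), rose from 132, 134 and 129.7 to 153, 146 and 152 FPKM (0.19 ± 0.037, adjusted p = 0.00395). Of the 6 genes of the mRNA channel and decoding centre 2 rose and 0 fell, and the other 4 (Rps15, Rps23, Rps26 and Rps28) did not pass the test. Rps6, the substrate of S6 kinases, rose from 253, 268 and 263 to 295, 293 and 309 FPKM (0.19 ± 0.041, adjusted p = 0.00536). Rps18 rose by 0.18 ± 0.049 (adjusted p = 0.0165), Rps13 by 0.26 ± 0.058 (adjusted p = 0.00703), Rps4x by 0.15 ± 0.043 (adjusted p = 0.0205) and Rps3a1 by 0.18 ± 0.045 (adjusted p = 0.0141). Rpsa, the laminin receptor that also forms part of the small subunit, differed by 0.12 ± 0.048 and did not pass (adjusted p = 0.0751). Rps27a, made as a fusion with ubiquitin, differed by 0.090 ± 0.22 (adjusted p = 0.780), and its groups overlapped.

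Of the large subunit with its paralogs, 15 of 49 rose and 2 fell, with a median difference of 0.14 (all tested genes 16.7% higher and 16.5% lower). In the stalk, which binds the elongation factors, Rplp0 rose from 807, 829 and 784 to 950.3, 948 and 989 FPKM (0.25 ± 0.042, adjusted p = 0.00152), and this call held in all alternatives tried. Rplp1 was measured at 1958, 2018 and 1876 against 2172, 2085 and 2222 FPKM (0.15 ± 0.053, adjusted p = 0.0564), without overlap, and Rplp2 at 182, 171 and 176 against 181, 170.4 and 191 FPKM (0.040 ± 0.073, adjusted p = 0.711), with overlap. Of 8 proteins around the peptide exit tunnel, Rpl35 rose by 0.25 ± 0.057, Rpl19 by 0.16 ± 0.045 and Rpl26 by 0.15 ± 0.042. The other 5 did not pass, among them Rpl4 (0.060 ± 0.043, adjusted p = 0.314) and Rpl39 (-0.020 ± 0.080, adjusted p = 0.870). Rpl10, which completes the tRNA sites of the subunit late in its assembly, rose by 0.24 ± 0.058 (adjusted p = 0.0101), and Rpl36a by 0.27 ± 0.063 (adjusted p = 0.00990). Both are on the X chromosome, where 3 of 4 members rose, beside 30 of all 83.

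Rpl5 and Rpl11, which carry 5S ribosomal RNA and bind Mdm2, were not among the genes that rose. Rpl5 was measured at 102, 102 and 97.4 FPKM in control and 104, 106 and 105 FPKM in knockout adipogenic libraries (0.057 ± 0.041, adjusted p = 0.301). Rpl11 was measured at 146, 131 and 129.9 against 125, 120.3 and 128 FPKM (-0.12 ± 0.066, adjusted p = 0.192), so that its groups did not overlap in the opposite direction. Of the 15 members whose human counterparts are mutated in Diamond-Blackfan anemia, an inherited failure of red cell production, 4 rose and 0 fell. Of all 83 members 30 rose and 2 fell, and of all tested genes 16.7% and 16.5%, so the 15 did not stand out. The best known of them, Rps19, was measured at 79, 87.2 and 78.9 against 96, 92.9 and 100.1 FPKM (0.24 ± 0.050, adjusted p = 0.00580), and Rpl35a rose by 0.22 ± 0.060 (adjusted p = 0.0183).

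The 2 members that fell were Rpl22l1 and Rpl3. Rpl22l1, a paralog that can take the place of Rpl22, was measured at 11.8, 13.1 and 14 FPKM in control and 10.2, 8.56 and 9.42 FPKM in knockout libraries (-0.43 ± 0.084, adjusted p = 0.00394), and at 12.8, 12.7 and 11.2 against 13.4, 11.5 and 12.2 FPKM in osteogenic medium. The 3 knockout adipogenic libraries were lower than the other 9. Its partner Rpl22 was at 59.7, 57.8 and 51.4 against 56.5, 55.6 and 58.1 FPKM (0.013 ± 0.059, adjusted p = 0.887). Rpl3, near the peptidyl transferase centre, was measured at 182, 192 and 172 against 166, 157 and 165 FPKM (-0.16 ± 0.048, adjusted p = 0.0282), without overlap, but by TPM scaling its difference turned to 0.027. At least 50% of the windows of both were shared with pseudogenes, of which Rpl3-ps1 had 34.8 FPKM and Gm15421, the copy of Rpl22l1, 1.32 FPKM on average. Of the other paralogs, Rpl7l1 differed by 0.11 ± 0.10 (adjusted p = 0.429) beside 0.13 ± 0.040 (adjusted p = 0.0279) for Rpl7, and Rpl39l, at 14.7, 19.95 and 16.6 against 21, 15.8 and 20.1 FPKM, by 0.14 ± 0.13 (adjusted p = 0.420). Rps19bp1 differed by 0.11 ± 0.068 (adjusted p = 0.233). Limited to the 49 members with under 50% of windows shared, 14 rose and 0 fell (all tested genes 16.7% and 16.5%). Of the 34 others 16 rose and 2 fell.

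**Figure D4:**
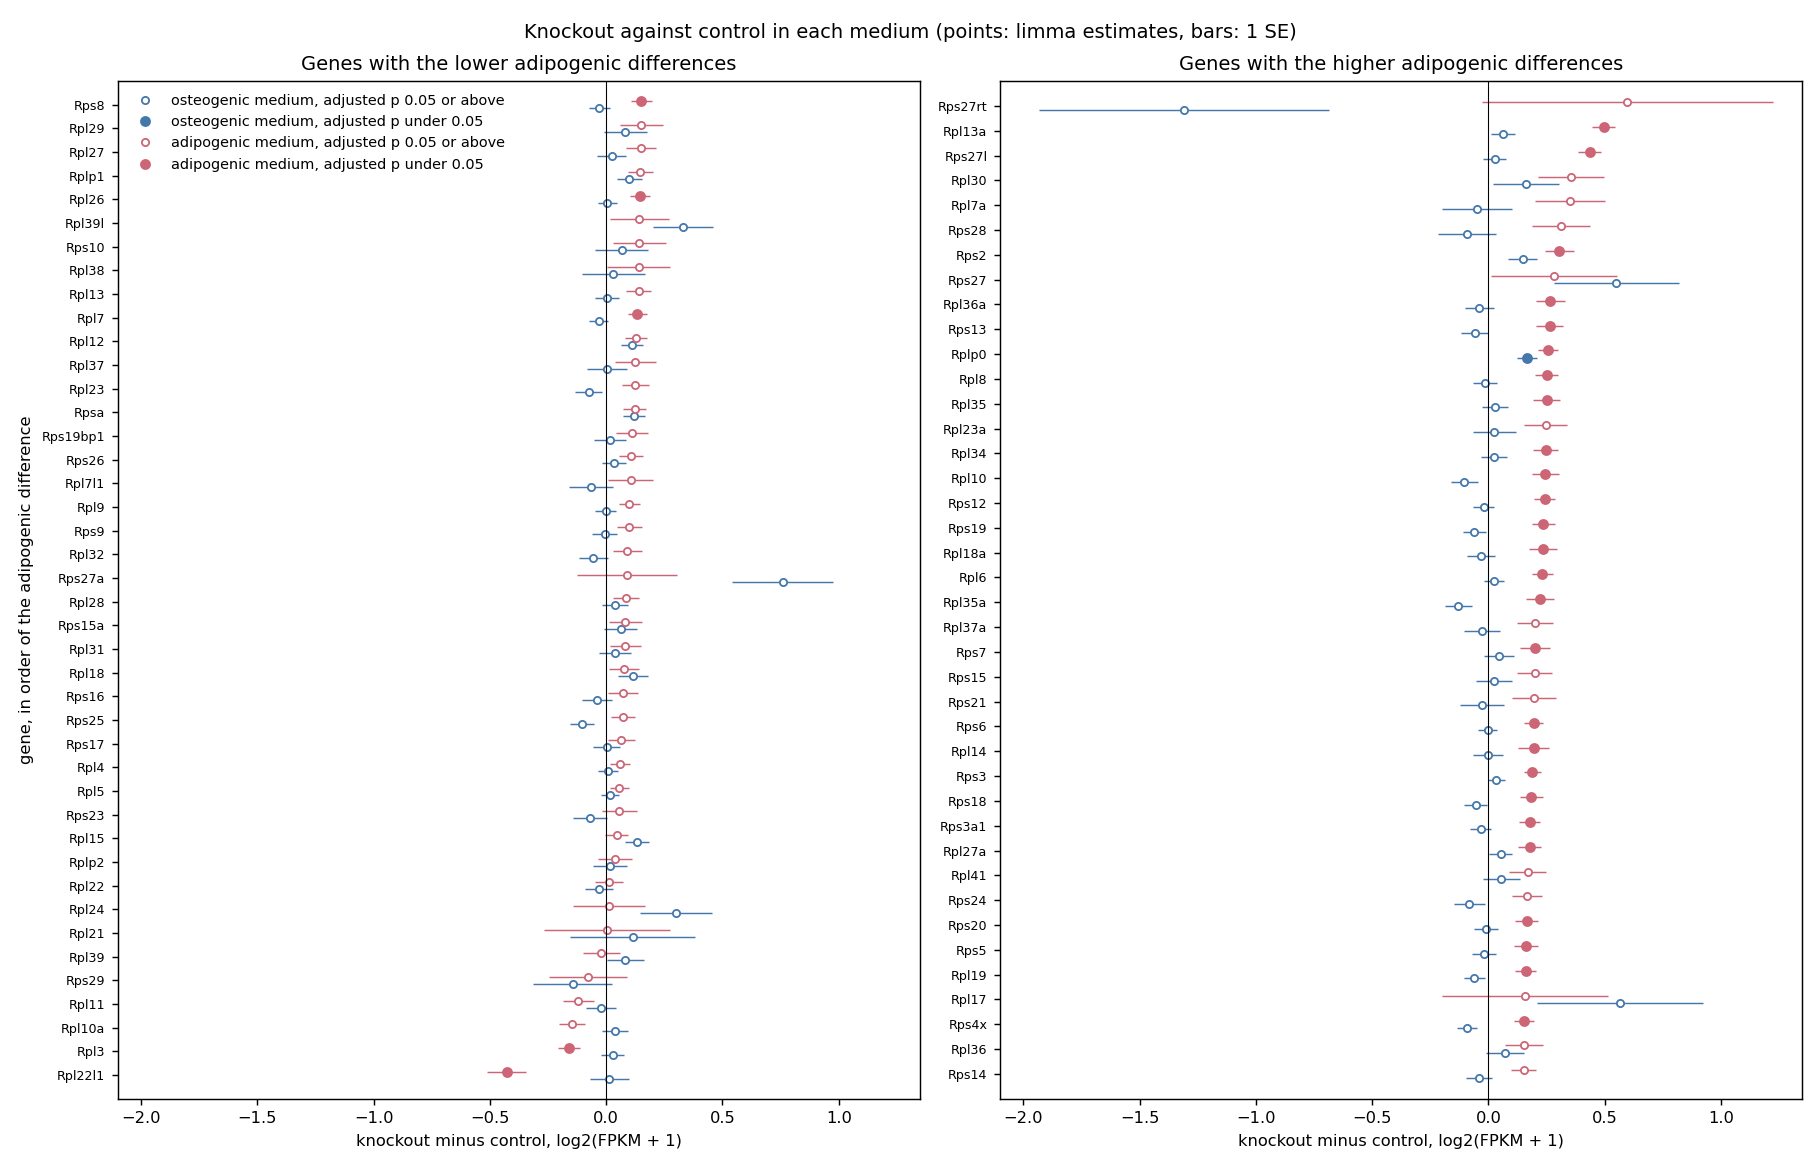
Difference of knockout and control on the log2(FPKM + 1) scale (x axis, limma estimate with 1 SE) for 82 of the 83 genes (y axis, in order of the adipogenic difference), in osteogenic (blue) and adipogenic medium (red), with filled points for an adjusted p under 0.05. In adipogenic medium 29 filled points lie above 0 and 2 below, and in osteogenic medium 1 above. The widest bars belong to Rps27rt, Rpl17, Rps27, Rpl21 and Rps27a.

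For the sequence features shown above the counts between the genotypes in adipogenic medium are as follows, beside 16.7% higher and 16.5% lower of all tested genes. Of the 30 members with a TOP start 11 rose and 1 fell, with a median difference of 0.16, and of the 33 without one 12 rose and 0 fell, with a median of 0.15. Of the 26 with an ETS motif 12 rose, and of the 37 without it 11 rose and 1 fell. Of the 6 with a Myc E-box 5 rose, and of the 57 without it 18 rose and 1 fell. With a GC box 17 of 39 rose and 1 fell, and without it 6 of 24 rose. With the YY1 core 7 of 15 rose, and without it 16 of 48 rose and 1 fell. With TATAAA 3 of 6 rose and 1 fell, and without it 20 of 57 rose. These counts are a description of 63 genes with no test.

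The difference between the genotype effects of both media was tested as an interaction. It was called for 17 of 83 members in the positive direction (a higher effect in adipogenic medium) and for 1 in the negative, against 10.9% and 9.58% of all tested genes. The median interaction was 0.14 (all tested genes −0.0028), and 70 members lay above 0. The largest of the called positive interactions were those of Rpl13a (0.43 ± 0.072, adjusted p = 0.00261), Rps27l (0.41 ± 0.070, adjusted p = 0.00310), Rpl10 (0.35 ± 0.082, adjusted p = 0.0150), Rpl35a (0.35 ± 0.084, adjusted p = 0.0170) and Rps13 (0.32 ± 0.082, adjusted p = 0.0217). Rpl35a, for example, was measured at 34.6, 35.1 and 33.6 against 32.8, 29 and 32.5 FPKM in control and knockout osteogenic libraries, where knockouts were lower, and at 36.7, 35.7 and 35 against 39.1, 41.8 and 44.8 FPKM in adipogenic medium, where they were higher. The negative call was Rpl22l1 (-0.44 ± 0.12, adjusted p = 0.0271). Rplp0, called in both media, had no called interaction (0.089 ± 0.060, adjusted p = 0.319). The count was sensitive to single libraries. It was 28 and 2 without control adipogenic library 2, where 19.7% and 22.5% of all tested genes were called, and 5 and 0 without knockout adipogenic library 3 (7.33% and 6.64%, so that the members lay near the share of all genes). With no filter on low values 7 and 0 were called (all tested genes 3.66% and 3.13%).

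The media were compared within each genotype. Both genotype contrasts and these share libraries, so their values are given side by side and are not independent. In control cells, 8 members were higher in adipogenic than in osteogenic medium and 0 lower, against 10.5% and 12.3% of all tested genes, with a median difference of 0.10 (all tested genes 0.0056). The 8 were Rps27 and Rpl18, Rplp2, Rpl11, Rpl28, Rplp0, Rpsa and Rpl27a. Rpl18 was measured at 79.9, 76.4 and 83.2 FPKM in osteogenic and 99.7, 93.6 and 92.4 FPKM in adipogenic medium (0.25 ± 0.064, adjusted p = 0.0216), Rplp2 at 135, 151 and 157 against 182, 171 and 176 FPKM (0.25 ± 0.073, adjusted p = 0.0348) and Rpl28 at 129, 135 and 145 against 159, 164 and 148 FPKM (0.20 ± 0.057, adjusted p = 0.0323). Rpl11 rose by 0.22 ± 0.066 (adjusted p = 0.0418) and Rplp0 by 0.20 ± 0.042 (adjusted p = 0.0109). The direction depended on scaling, since by TPM scaling the median of the members was −0.032 and that of all tested genes −0.10, with 0 members called. Fitted on the 6 control libraries alone, 0 were called. Rps27 carried the largest value (1.04 ± 0.27), but the sum with its identical copy did not separate the groups, with 125, 156 and 143 fragments per 1000000 in osteogenic and 158, 163 and 136 in adipogenic medium.

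In knockout cells 51 of the 83 ribosomal protein genes were higher in adipogenic medium and 1 lower, against 13.9% and 14% of all tested genes, with a median difference of 0.25 (1.19-fold, all tested genes 0.0040), and by TPM scaling 37 were higher and 0 lower (all tested genes 13.2% and 6.97%) with a median of 0.31 (all tested genes 0.056). Rps28, beside the mRNA exit of the small subunit, was measured at 116, 96 and 103 FPKM in osteogenic and 159, 149 and 169 FPKM in adipogenic medium (0.60 ± 0.12, adjusted p = 0.00547). Rpl13a rose by 0.42 ± 0.051 (adjusted p = 0.000270), Rpl35a by 0.40 ± 0.060 (adjusted p = 0.000889), Rps19 by 0.40 ± 0.050 (adjusted p = 0.000342) and Rps27l by 0.37 ± 0.049 (adjusted p = 0.000472). In Rps19 the osteogenic and adipogenic groups were 75.4, 71 and 72 against 96, 92.9 and 100.1 FPKM. All 3 stalk genes rose, Rplp0 by 0.29 ± 0.042, Rplp2 by 0.28 ± 0.073 and Rplp1 by 0.17 ± 0.053. Of 49 large-subunit genes 27 rose and 1 fell, and of 33 small-subunit genes 23 rose and 0 fell, beside Rps19bp1, which rose by 0.25 ± 0.068 (adjusted p = 0.0223). The 1 that fell was Rpl22l1 (-0.36 ± 0.084, adjusted p = 0.00963). Rpl5, Rpl4 and Rpl39 did not pass (adjusted p = 0.0906, adjusted p = 0.193 and adjusted p = 0.485). Of the 30 members called higher by genotype in adipogenic medium 29 were among these 51, as contrasts that share the knockout adipogenic libraries.

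**Figure D5:**
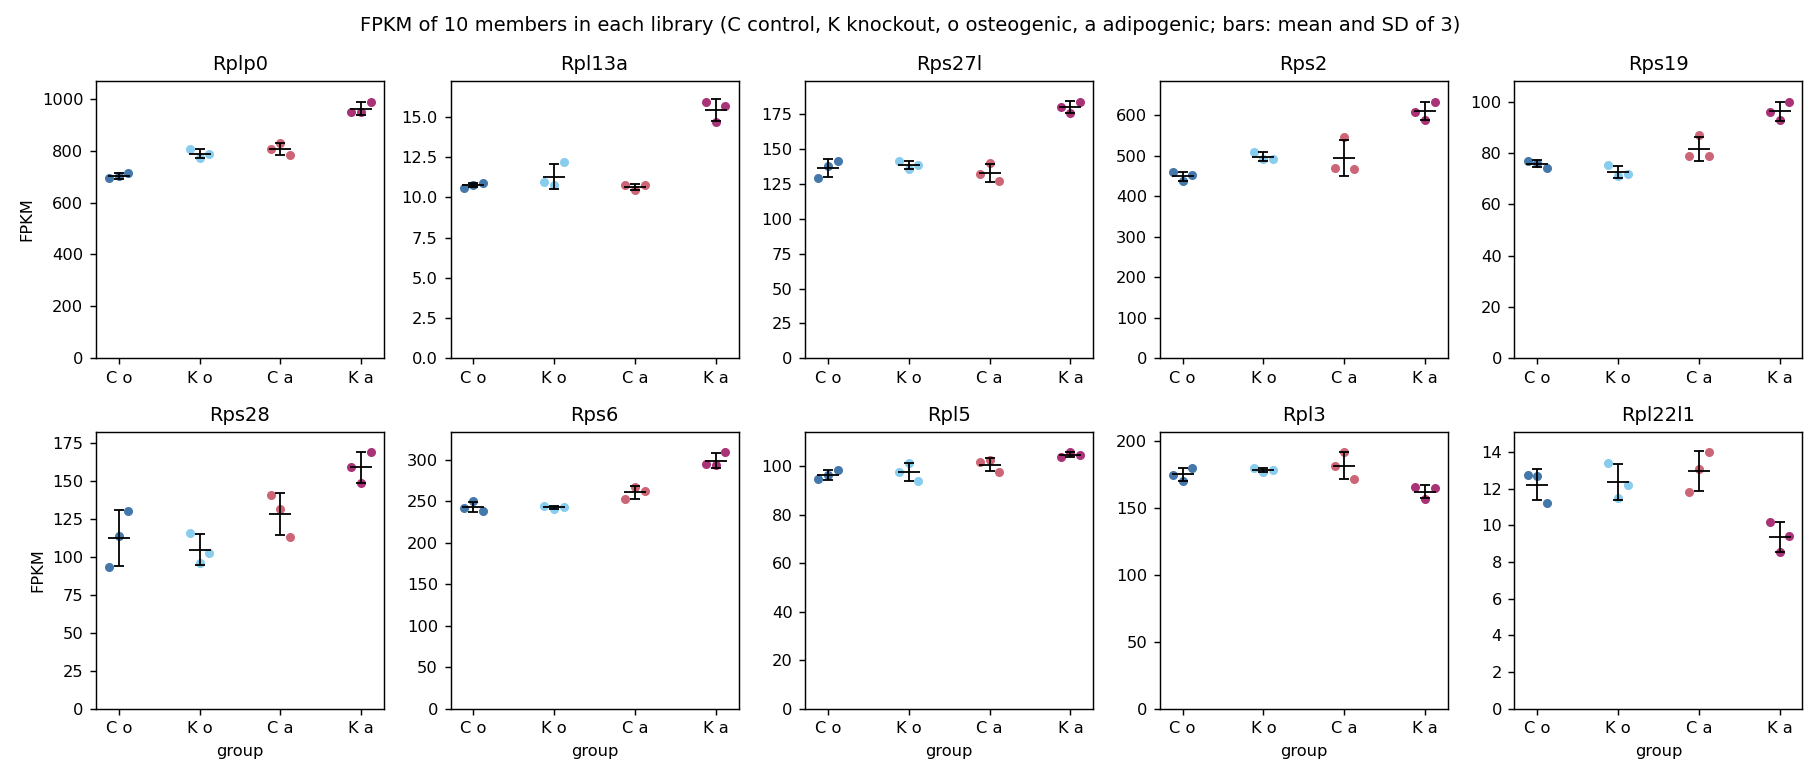
FPKM (y axis) of 10 members in the 12 libraries (points), by group (x axis), with the mean and SD of 3. Rpl13a, Rps27l, Rps19 and Rps6 are highest in the 3 knockout adipogenic libraries, Rpl22l1 and Rpl3 lowest there, Rplp0 differs by genotype in both media, and Rpl5 stays between 93.8 and 106 FPKM.

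Counts for other parts of the translation machinery between the genotypes in adipogenic medium stand against the 16.7% higher and 16.5% lower of all tested genes. Of 17 elongation factors and other TOP mRNAs 7 rose and 2 fell. Eif3f rose by 0.37 ± 0.083, Tpt1, a translationally controlled protein, by 0.31 ± 0.077, and Hnrnpa1 fell by 0.38. Eef1a1, the main carrier of aminoacyl tRNA, was at 1972, 1973 and 2033 against 2153, 2112 and 2202 FPKM and did not pass (0.11 ± 0.042, adjusted p = 0.0642). Fau, a fusion gene that encodes a further subunit and falls outside the rule on names, differed by 0.088 ± 0.058 (adjusted p = 0.269). Of 30 initiation factors 7 rose and 5 fell, among them Eif2b2 (0.34 ± 0.065) and Eif4g2 (-0.37 ± 0.13). Of 77 mitochondrial ribosomal proteins 17 rose and 0 fell, led by Mrps6 (0.77 ± 0.13) and Mrpl34 (0.48 ± 0.10).

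Against 16.7% and 16.5% of all tested genes called higher and lower in this comparison, the genes that make ribosomes gave the following counts. Of 40 assembly factors 8 rose and 4 fell, including Wdr12 (0.42 ± 0.070), Utp4 (0.40 ± 0.064) and Ltv1 (-0.25 ± 0.081), and the median of the list was 0.023. Nucleolin (Ncl) and fibrillarin (Fbl) did not pass, with -0.093 ± 0.040 and 0.051 ± 0.056. Of 20 genes of RNA polymerase I and its factors 5 rose and 2 fell. Polr1d rose by 0.48 ± 0.068, and Ubtf, which binds ribosomal DNA, fell by 0.24 (adjusted p = 0.000895). Of 7 noncoding host genes of small nucleolar RNAs 2 rose (Snhg8 and Snhg6) and 1 fell (Snhg5).

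Of the regulators of these genes, Myc was at 20.9, 20.3 and 21.7 against 22.4, 21.4 and 21 FPKM in adipogenic medium (0.041 ± 0.043, adjusted p = 0.499). In osteogenic medium it was at 23.8, 23.6 and 24.5 against 21.1, 19.96 and 21.1 FPKM and fell in knockout cells (-0.20 ± 0.043, adjusted p = 0.0169). In its list of 7 tested genes 1 rose and 2 fell in adipogenic medium, namely Mxd4 (0.49 ± 0.058), a Myc antagonist, Mxd1 (-0.52 ± 0.13) and Mnt (-0.25 ± 0.064). In the mTORC1 pathway 6 of 19 rose and 2 fell. Both lists stand beside 16.7% higher and 16.5% lower of all tested genes. Deptor, an inhibitor of mTOR, rose by 0.96 ± 0.14 and Akt1s1, another inhibitor, by 0.42 ± 0.057, whereas Mtor (-0.062 ± 0.054) and the TOP mRNA binding protein Larp1 (-0.085 ± 0.081) did not pass.

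Of 14 genes of the p53 response 10 rose in this comparison and 1 (Mdm4) fell (all tested genes 16.7% and 16.5%). Cdkn1a (p21) was measured at 74.3, 71.1 and 73.2 FPKM in control and 122, 123 and 121 FPKM in knockout adipogenic libraries (0.74 ± 0.034, adjusted p = 7.14e-07). Eda2r rose by 1.23 ± 0.10, Phlda3 by 1.18 ± 0.11 and Ccng1 by 0.85 ± 0.069. Mdm2 rose by 0.68 ± 0.070, and Trp53 itself did not pass (-0.035 ± 0.11, adjusted p = 0.840). In osteogenic medium 2 of the 14 rose (Phlda3 and Sesn2) and 0 fell (all tested genes 4.94% and 4.15%).

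Lists of other housekeeping functions were counted in the same comparison, where 16.7% of all tested genes rose and 16.5% fell. Of 31 proteasome genes 1 rose and 11 fell, with Psma5 at -0.62 ± 0.11 and Psmb6 at -0.48 ± 0.12. Of 16 proliferation genes 1 rose (Rrm2) and 10 fell, with Top2a at -0.78 ± 0.19. The sums of these 16 were 248, 457 and 243 FPKM in control and 244, 267 and 281 FPKM in knockout libraries. Among the controls, only library 2 thus lay above all knockouts in the sum. Of 34 nuclear genes of oxidative phosphorylation 1 rose and 2 fell. Of the common reference genes Actb fell by 0.52 and Hprt by 0.19, while Ppia (adjusted p = 0.293), B2m (adjusted p = 0.104) and Tbp (adjusted p = 0.978) did not pass. Gapdh, the reference of the osteogenic experiments, was listed at 4.34, 4.14 and 4.42 FPKM in control and 21.3, 6.58 and 28.7 FPKM in knockout osteogenic libraries and at 9.50, 33.9 and 56.1 against 28.7, 17.9 and 4.18 FPKM in adipogenic medium. These values spread widely within 3 of the 4 groups. Sequence shared with other genes was not measured for Gapdh, so its listed level is uncertain and no direction was read from it. In the medium comparison of knockout cells, 14 of 16 proliferation genes fell and 1 rose (all tested genes 14% and 13.9%), where 51 members rose.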

How the data were processed

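The authors deposited 1 table of FPKM for 12 libraries (NEBNext Ultra, Illumina HiSeq). The submitters' processing notes name Bowtie 0.12.2 and mm9, while identifiers and lengths fit GENCODE M21 (GRCm38), and how fragments with several matches were counted is not given in the sources used here. From FPKM and exonic lengths, fragments were recovered (98.2% to 98.4% of values under 30 fragments were whole within 0.02, chance 4%). The deposited values had already been scaled between libraries, since their median ratio to a geometric mean over libraries was 1.00 in each, and FPKM summed to 295244 to 380097.

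In R 4.3.3, limma 3.58.1 with a mean-variance trend was fitted on log2(FPKM + 1) over all 12 libraries in 4 groups, for 12871 genes with at least 1 FPKM in 3 libraries, with Benjamini-Hochberg adjustment and a threshold of 0.05. The log2(FPKM + 1) scale understates changes of low genes. Of 54532 rows, 54495 had a symbol. Shared sequence was counted in windows of 50 bases, and start regions came from RefSeq. The fit was tested on simulated data. Figures were drawn with matplotlib 3.10.9.

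Named are genes fixed for their role, paralogs with their partners, the 5 highest and 5 lowest members, the 5 largest called changes either way in each contrast, up to 4 genes of each list, and some chosen after their values were seen, apart from 2 genes that enter all counts but are not reported here. Members and lists were chosen with earlier results of these data known. The alternatives are those of the closing section, of which leaving out members with shared windows was added after seeing the data.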

Additional observations from a re-analysis of the deposited data

Results flagged for a closer look

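For 12 of the named members the difference between knockout and control was not the same in both media by the interaction test of limma (adjusted p under 0.05). In 11 of them knockout cells exceeded control cells more in adipogenic than in osteogenic medium, by 0.43 on the log2(FPKM + 1) scale for Rpl13a, 0.41 for Rps27l, 0.349 for Rpl10, 0.349 for Rpl35a, 0.32 for Rps13, 0.30 for Rpl36a, 0.30 for Rps19, 0.25 for Rps4x, 0.24 for Rps18, 0.21 for Rps3a1 and 0.20 for Rps6. For Rpl22l1 the interaction was -0.44. Of these, Rpl13a, Rps27l, Rpl10, Rpl35a and Rps19 passed in all 19 alternatives, and Rps3a1 and Rps6 each passed in 6 of 19. No outlier test was run on groups of 3 libraries.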

How the results depend on the processing

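Depth was not a limit for most members, since they lay far above the 0.143 to 0.185 FPKM of 3 fragments per kilobase, apart from Rpl24 and Rps10. A pseudocount of 0.1, no trend and median-ratio scaling kept all 5 counts within 1.5 times. In the order knockout against control in osteogenic medium, in adipogenic medium, interaction, and medium in control and in knockout cells, the reported counts were 1, 32, 18, 8 and 52. The shares of all tested genes were 9.09%, 33.2%, 20.4%, 22.8% and 27.9%. Without a filter on low values the first 4 became 0, 21, 7 and 1 (all tested genes 2.89%, 12.5%, 6.79% and 6.68%). With TPM scaling they were 0, 55, 14 and 0 (all tested genes 4.09%, 32.3%, 17.7% and 16.4%). The median log2 difference moved to 0.339 in adipogenic medium, 0.338 for the interaction, −0.032 for the medium in control cells (reversed) and 0.309 in knockout cells, and Rpl3 turned to 0.0268. With only the libraries compared the counts were 7, 9 and 0 (osteogenic, adipogenic, medium in control cells), against 26.6%, 13% and 3.81% of all tested genes. Limma voom on recovered fragments gave 2 in osteogenic medium (all tested genes 9.39%). Without members that share 50% or more of their windows, 14 (adipogenic), 6 (interaction) and 30 (medium in knockout cells) were left of 49 members. All of these were in the positive direction, where 16.7%, 10.9% and 13.9% of all tested genes were called. For the interaction these members (12.2%) thus lay near the share of all genes. Of the 34 members left out, 11 had a positive and 1 a negative interaction. The fits on fewer libraries or members have fewer degrees of freedom or fewer genes, and in the others the cause was not tested.

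Leaving out 1 library at a time gave counts from 0 to 0, 16 to 40, 5 to 30, 1 to 11 and 38 to 53, and medians from −0.0303 to 0.0271, 0.126 to 0.175, 0.108 to 0.185, 0.0516 to 0.118 and 0.228 to 0.272. In these fits the shares of all tested genes ran from 4.13% to 5.21%, 21.7% to 51%, 14% to 42.2%, 10.6% to 47.8% and 19.4% to 22.3%. The call of Rplp0 in osteogenic medium rested on every 1 of its 6 libraries. For the medium in control cells the count was 1 without control osteogenic library 1, 2 without library 2 and 2 without control adipogenic library 1 (all tested genes 11.4%, 11.1% and 10.8%). For the interaction it was 8 without control osteogenic library 3 and 9 without library 2 (all tested genes 14.8% in both). It was 7 without either knockout osteogenic library 2 or 3 (14.4% and 14.3%), and 9 without either control adipogenic library 1 or 3 (16.4% and 15.9%). With calls in both directions counted, the share of members called lay below that of all tested genes in each of these fits. For the interaction, 7.78% to 8.62% of all tested genes were called in the positive direction in these fits. With all libraries, 17 members were called in that direction and 1 in the other. The member counts of these fits are not split by direction here, so for the interaction no shortfall in the positive direction was read from them.

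Replicate numbers are shared between the groups. Deviations of libraries with the same number correlated between −0.29 and 0.47, so the numbers were not taken as pairs. With the replicate block the counts were 0 (osteogenic), 31, 11 (interaction), 7 and 50, against 7.91%, 32.4%, 19.2%, 22.6% and 27% of all tested genes. With calls in both directions counted, the share of members called thus lay below that of all genes in osteogenic medium, for the interaction and for the medium in control cells. For the interaction, 10.2% of all tested genes were called in the positive direction. The 11 members are not split by direction here, so no shortfall in that direction was read from them.

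The members' share of all FPKM rose to 5.71%, 5.72% and 7.01% in control osteogenic, knockout osteogenic and knockout adipogenic libraries with pseudogene rows added, and to 5.40%, 5.44% and 6.66% with mitochondrially encoded genes left out of the sum. For control adipogenic libraries these were 5.58 ± 0.876% and 5.27 ± 0.867% (SD, n = 3), the widest spread of the 4 groups. Over the named genes, 783 alternative values kept direction and side of the threshold, 189 lost the call, 2 gained one and 1 reversed.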

Other observations

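The pseudogene rows named after these genes carried signal of their own. Of 300 such rows 64 had a mean of at least 1 FPKM, and in each library they summed to 1593 to 2000.5 FPKM. Examples are Rpl17-ps10, with 234, 256 and 264 FPKM in control and 123, 229 and 170.4 FPKM in knockout osteogenic libraries and 203, 110.3 and 238 against 96.2, 291 and 206 FPKM in adipogenic medium, and Rps10-ps2, with 162 to 225 FPKM over all 12 libraries. In fragments per 1000000 Rps10 and Rps10-ps2 together had 91.2 ± 5.29 in control and 93.3 ± 9.46 in knockout osteogenic libraries and 95.5 ± 8.09 and 106 ± 9.44 in adipogenic medium (SD, n = 3 each). Rps10 itself had 2.08 to 3.96 and Rps10-ps2 80.4 to 112. The summed FPKM of large-subunit genes was 1.5 times that of small-subunit genes in control osteogenic, 1.56 to 1.58 times in knockout osteogenic, and between 1.52 and 1.56 times in adipogenic libraries.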
